A study of Rattus norvegicus with 6 samples.

Results

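Glutamate receptors and their auxiliary subunits were described as a module of 34 genes, chosen by symbol and followed through neurons, astrocytes and oligodendrocyte precursor cells (OPCs) after a stroke in rats. Of these 34 genes, 33 had a row under their symbol among the 30560 genes of the count tables, and Gria3 was not matched and has no value here. The nuclei came from the brains of 11 male wild-type rats aged 12 weeks, taken 48 h after a sham operation or after MCAO, in which a filament permanently closed the middle cerebral artery of the right side. They were pooled into 6 libraries, namely Sham L and Sham R (left and right hemispheres of the same 4 sham-operated rats), mMCAO contra and mMCAO ipsi (3 rats with moderate infarcts) and sMCAO contra and sMCAO ipsi (4 rats with severe infarcts). The contra libraries hold the left hemispheres and the ipsi libraries the right, infarcted ones. The 3 groups compared, each of 2 libraries, were called Sham, MCAO contra and MCAO ipsi. Since every library is a pool, and the libraries of a group share their rats or differ in infarct severity, p-values measure the spread between these libraries and not between rats.

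Glutamate is the main excitatory transmitter of the brain. AMPA, NMDA and kainate receptors are ion channels built from the Gria, Grin and Grik subunits, and the metabotropic receptors of the Grm genes signal through G proteins. The Gria2 subunit limits the calcium permeability of AMPA receptors, and NMDA receptors pair the obligatory Grin1 subunit with Grin2 or Grin3 subunits. Auxiliary proteins such as the TARPs (Cacng2 to Cacng5, Cacng7 and Cacng8), cornichons (Cnih2, Cnih3), Shisa proteins and Neto proteins set the trafficking and gating of AMPA and kainate receptors. Overactivation of these receptors is the textbook route of excitotoxic death in ischaemic tissue, and astrocytes and OPCs carry receptors of their own.

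Nuclei were assigned to a class by marker genes that hold no member of the module. The classes held 17990 glutamatergic neuron-like, 5833 medium spiny neuron-like, 7468 interneuron-like, 1875 astrocyte-like and 2001 OPC-like nuclei. Of these nuclei, 91.8%, 81.4%, 57.2%, 85.9% and 73.1%, in this order, lay in unsupervised clusters that carried the same name. Another 23935 nuclei passed as neurons but fell in none of the neuron classes above. They outnumbered glutamatergic neuron-like nuclei in every Sham and contra library, for example 6586 beside 3212 for Sham R. For MCAO ipsi they did not, with 2713 beside 4289 (moderate infarcts) and 989 beside 1180 (severe infarcts). The typed part of the neurons thus differed between the groups, and how far this shapes the neuron changes was not tested. Total depth ran from 33012945 to 52513380 unique molecular identifiers (UMIs) per library. Values are UMIs per 1000000 UMIs of a class (CPM), and changes are log2 fold changes ± SE from the quasi-likelihood test of edgeR, with p-values adjusted by the Benjamini-Hochberg method over all genes tested. Calls required a change of at least 0.6 on the log2 scale together with an adjusted p under 0.05. Counts of members called in refits, such as those without 1 library, mostly stand without the share of all genes called. Such counts do not show whether the members moved apart from other genes. Where a call is said to be lost, the refits named are not always all of them. The assay reads RNA of nuclei with introns counted, so levels of different genes were not compared. Neurons of sMCAO ipsi were the deepest, with a median of 8667 UMIs in glutamatergic neuron-like nuclei against 2992 in the shallowest library of that class.

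In glutamatergic neuron-like nuclei, 4 of 32 members tested were lower in MCAO ipsi than in Sham and 0 were higher. Of all genes, 6.65% were called in this comparison, 2.28% lower and 4.37% higher. The 4 were the NMDA subunit Grin2a, the kainate subunit Grik3, the metabotropic receptor Grm4 and the AMPA receptor auxiliary subunit Shisa6. The median change of the members was -0.23, beside 0.01 for all genes tested. When 1 library was left out, the count ran from 0 (without Sham L) to 8 (without mMCAO ipsi). Against MCAO contra, 2 members were called lower and 0 higher, beside 3.66% of all genes (1.59% lower and 2.06% higher). That count was 0 without mMCAO contra, 1 without sMCAO contra or sMCAO ipsi and 6 without mMCAO ipsi. The shares of all genes called with 1 library left out are not given beside these counts. Between MCAO contra and Sham 0 were called by edgeR and by DESeq2, beside 0.0631% of all genes. There 16 of 32 members had an unadjusted p under 0.05, beside 2159 of all 14253 genes tested.

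**Figure D1:**
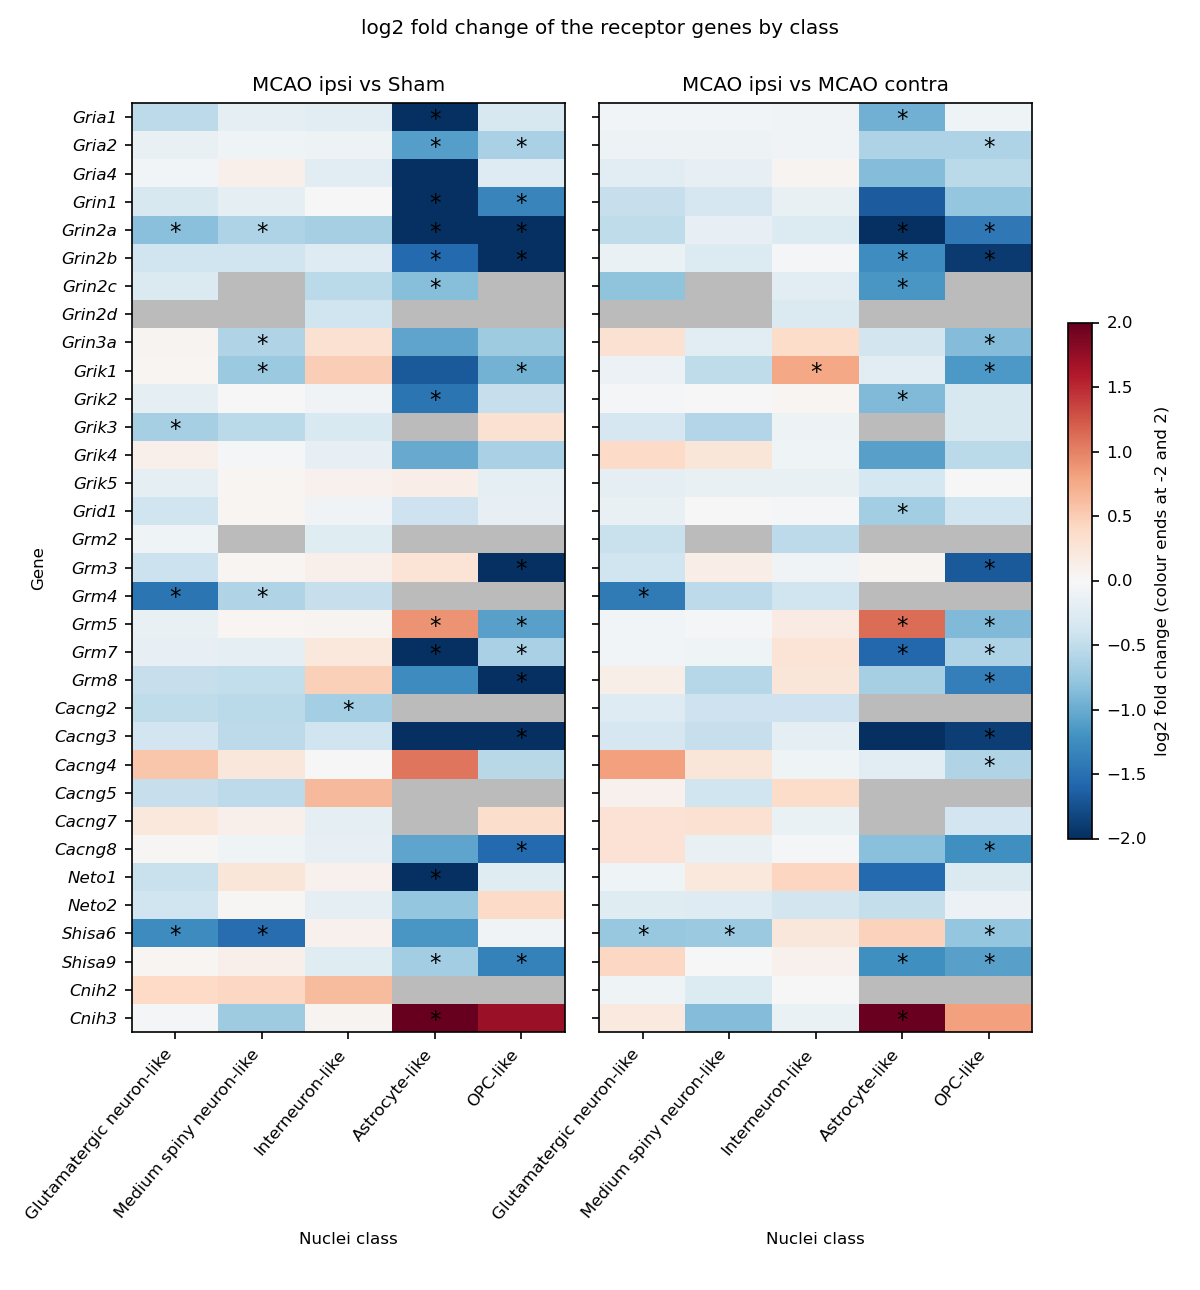
log2 fold change of each of the 33 members (rows) in 5 classes (columns), for MCAO ipsi against Sham (left) and against MCAO contra (right). Red is higher and blue is lower in MCAO ipsi, stars mark called genes and grey marks genes with too few UMIs to test. Most stars are on blue, and those on red are Grm5 and Cnih3 (which passed the filter through MCAO ipsi only) in astrocyte-like nuclei and, against MCAO contra, Grik1 in interneuron-like nuclei. Grin1 and Grin2a of astrocyte-like and Cacng3 of OPC-like nuclei passed it with no MCAO ipsi library over the limit.

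Grin2a, which encodes a subunit of mature synaptic NMDA receptors, stood at 1346 and 1285 CPM in Sham L and Sham R, 1173 and 1111 in the contra and 896 and 691 in the ipsi hemispheres of mMCAO and sMCAO. Both MCAO ipsi libraries lay below all others, and the change from Sham was -0.83 ± 0.14 (adjusted p = 0.0102). The call was lost without Sham L (-0.79) or Sham R (-0.88), while the size of the change was kept. Grin2b, the subunit that prevails early in development, was at 1888 and 1781 CPM in Sham L and Sham R, 1611 and 1677 in the contra and 1519 and 1473 in the ipsi hemispheres of mMCAO and sMCAO, lowest in the MCAO ipsi libraries but below the size needed for a call (-0.40 ± 0.09, adjusted p = 0.0262). Grin1 was at 336 and 339 CPM in Sham L and Sham R, 397 and 415 in the contra and 297 and 285 in the ipsi hemispheres of mMCAO and sMCAO (-0.32 ± 0.08, adjusted p = 0.0333). Its contrast with MCAO contra was larger, at -0.47 ± 0.08 (adjusted p = 0.0129), and also below the size for a call.

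Medium spiny neurons are the projection neurons of the striatum, and in nuclei of this class Grin2a stood at 841 and 866 CPM in Sham L and Sham R, 658 and 641 in the contra and 679 and 487 in the ipsi hemispheres of mMCAO and sMCAO. The change of -0.62 ± 0.12 (adjusted p = 0.00582) was called, although mMCAO ipsi was above both contra libraries. It kept its call in 4 of 12 alternatives and lost it, among others, without Sham L (-0.63), Sham R (-0.61) or sMCAO ipsi (-0.38). Interneuron-like nuclei held 1004 and 1034 CPM in Sham L and Sham R, 841 and 839 in mMCAO contra and sMCAO contra, and 808 and 519 in mMCAO ipsi and sMCAO ipsi. There the change of -0.67 ± 0.17 was not called (adjusted p = 0.075). Without mMCAO ipsi it was -1.08 and called, without sMCAO ipsi it was -0.35, and it was also called with no filter on low counts (-0.67) and with classes from clusters (-0.64). In all 3 classes, sMCAO ipsi was the lowest library.

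The share of Grin2b in the UMIs of Grin2a and Grin2b was also read. In glutamatergic neuron-like nuclei it was 58.4% and 58.1% in Sham L and Sham R, 57.9% and 60.1% in the contra and 62.9% and 68.1% in the ipsi hemispheres of mMCAO and sMCAO. The 95% exact binomial interval was 67.5% to 68.7% in sMCAO ipsi and covers counting error only. In interneuron-like nuclei the share was 56.6% and 54.5% in Sham L and Sham R and 67.3% in sMCAO ipsi, while mMCAO ipsi with 58.9% was close to the contra libraries with 58.1% and 58.2%. In medium spiny neuron-like nuclei the share was 65.1% and 63.2% in Sham L and Sham R, 69.6% and 69.1% in mMCAO contra and sMCAO contra, and 65.3% and 70.7% in mMCAO ipsi and sMCAO ipsi. The highest library was sMCAO ipsi in all 3 classes, while mMCAO ipsi lay below both contra libraries in the medium spiny class. These shares were not tested.

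**Figure D2:**
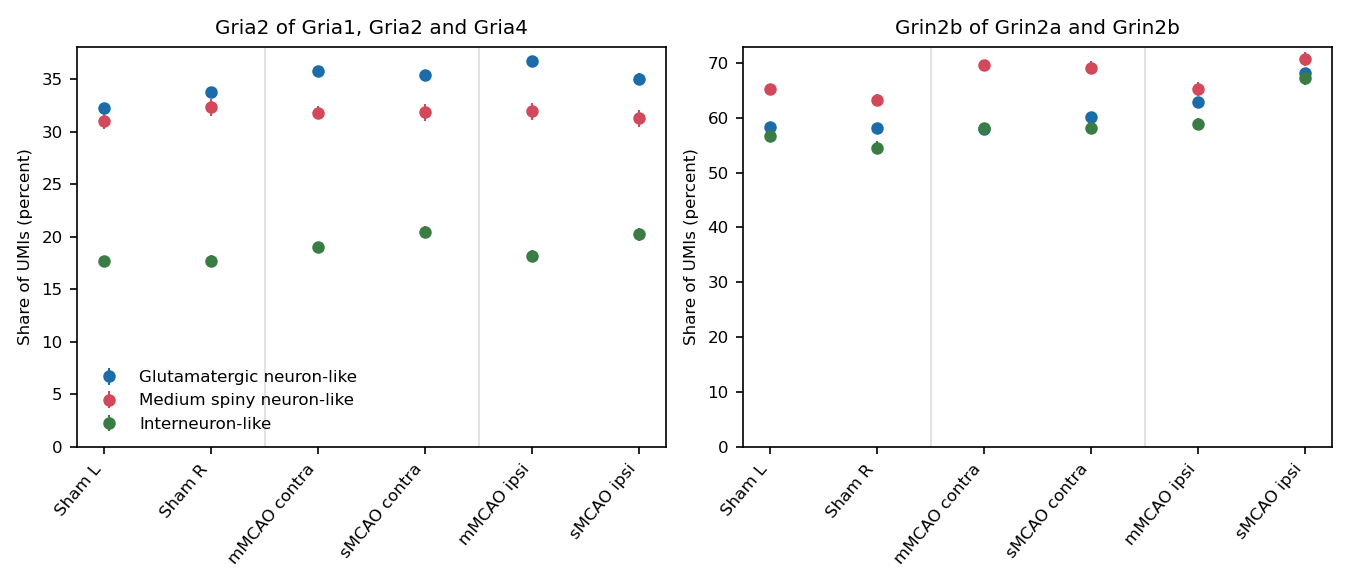
Share of Gria2 among the UMIs of Gria1, Gria2 and Gria4 (left, percent) and of Grin2b among Grin2a and Grin2b (right, percent) by library in 3 neuron classes, with 95% exact binomial intervals. The Grin2b share of glutamatergic neuron-like nuclei is highest in sMCAO ipsi (68.1%), and the Gria2 share of that class lies between 32.3% and 36.7%.

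The Gria genes encode the AMPA receptor channel, and none of them was called in any of the 3 neuron classes and 3 comparisons. In glutamatergic neuron-like nuclei, Gria1 stood at 1559 and 1494 CPM in Sham L and Sham R, against 1174 and 1226 in mMCAO contra and sMCAO contra and 1172 and 1121 in mMCAO ipsi and sMCAO ipsi. Both Sham libraries were thus above both hemispheres of the stroke brains, and the ipsi libraries were just below the contra ones. The change of MCAO ipsi from Sham was -0.52 ± 0.09 (adjusted p = 0.0114), and without mMCAO ipsi it was -0.60 and called. Gria2 was at 1175 and 1201 CPM in Sham L and Sham R, 1240 and 1271 in the contra and 1264 and 1045 in the ipsi hemispheres of mMCAO and sMCAO (-0.15 ± 0.12, adjusted p = 0.43). Gria4 was at 902 and 858 CPM in Sham L and Sham R, 1049 and 1094 in the contra and 1004 and 812 in the ipsi hemispheres of mMCAO and sMCAO (-0.06 ± 0.12, adjusted p = 0.783). Both genes were lowest in sMCAO ipsi, while mMCAO ipsi lay above both Sham libraries. The Gria2 share of the Gria1, Gria2 and Gria4 UMIs was 32.3% and 33.8% in Sham L and Sham R and 36.7% and 35.1% in mMCAO ipsi and sMCAO ipsi, with the contra libraries at 35.8% and 35.4%. In medium spiny neuron-like nuclei this share ran from 31.0% to 32.3% over all libraries, and in interneuron-like nuclei from 17.7% to 20.5%.

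In the medium spiny class, Gria1 was at 2202 and 2022 CPM in Sham L and Sham R, 2012 and 2003 in the contra and 2048 and 1872 in the ipsi hemispheres of mMCAO and sMCAO (-0.18 ± 0.09, adjusted p = 0.254). Gria2 was at 1445 and 1441 CPM in Sham L and Sham R, 1507 and 1537 in the contra and 1470 and 1390 in the ipsi hemispheres of mMCAO and sMCAO (-0.09 ± 0.08, adjusted p = 0.601). Gria4 was at 1012 and 992 CPM in Sham L and Sham R, 1215 and 1285 in the contra and 1083 and 1181 in the ipsi hemispheres of mMCAO and sMCAO (0.10 ± 0.08, adjusted p = 0.537). Neither MCAO ipsi library stood apart from the rest for all 3 genes, with sMCAO ipsi lowest for Gria1 and Gria2 and the Sham libraries lowest for Gria4. Grin1 was at 365 and 354 CPM in Sham L and Sham R, 411 and 425 in the contra and 327 and 340 in the ipsi hemispheres of mMCAO and sMCAO (-0.19 ± 0.08, adjusted p = 0.207). Grin2b was at 1572 and 1489 CPM in Sham L and Sham R, 1507 and 1436 in the contra and 1278 and 1174 in the ipsi hemispheres of mMCAO and sMCAO (-0.40 ± 0.09, adjusted p = 0.0124). Both MCAO ipsi libraries were the lowest for both NMDA subunits, but neither gene was called. Grin2b was below the size for a call, and Grin1 missed both the size and the limit on the adjusted p.

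In interneuron-like nuclei, Gria1 was at 2122 and 2151 CPM in Sham L and Sham R, 2068 and 2045 in the contra and 2009 and 1775 in the ipsi hemispheres of mMCAO and sMCAO (-0.23 ± 0.10, adjusted p = 0.253). Gria2 was at 982 and 1008 CPM in Sham L and Sham R, 1016 and 1084 in the contra and 996 and 943 in the ipsi hemispheres of mMCAO and sMCAO (-0.09 ± 0.09, adjusted p = 0.629). Gria4 was at 2445 and 2522 CPM in Sham L and Sham R, 2262 and 2160 in the contra and 2466 and 1936 in the ipsi hemispheres of mMCAO and sMCAO (-0.23 ± 0.12, adjusted p = 0.369). For each of the 3 the lowest library was sMCAO ipsi. Grin1 was at 249 and 245 CPM in Sham L and Sham R, 276 and 322 in the contra and 260 and 259 in the ipsi hemispheres of mMCAO and sMCAO (0.01 ± 0.09, adjusted p = 0.96). Grin2b was at 1310 and 1239 CPM in Sham L and Sham R, 1164 and 1167 in the contra and 1156 and 1066 in the ipsi hemispheres of mMCAO and sMCAO (-0.26 ± 0.09, adjusted p = 0.187), again lowest in sMCAO ipsi.

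Among the auxiliary subunits, Shisa6, whose protein keeps AMPA receptors in the postsynaptic density, stood in glutamatergic neuron-like nuclei at 160 and 145 CPM in Sham L and Sham R, 103 and 131 in the contra and 79.5 and 56.0 in the ipsi hemispheres of mMCAO and sMCAO. No MCAO ipsi library overlapped the others, and the change was -1.26 ± 0.18 from Sham (adjusted p = 0.00666) and -0.75 ± 0.17 from MCAO contra (adjusted p = 0.036). Without Sham L the first change was -1.18 and not called, and the second was not called without mMCAO contra (-0.91), sMCAO contra (-0.61) or sMCAO ipsi (-0.50). In medium spiny neuron-like nuclei Shisa6 fell from 101 and 95.1 CPM in Sham L and Sham R to 57.0 and 62.2 in mMCAO contra and sMCAO contra and to 30.2 and 41.5 in mMCAO ipsi and sMCAO ipsi. The 3 groups did not overlap. The change was -1.52 ± 0.14 from Sham (adjusted p = 2e-05) and -0.74 ± 0.14 from MCAO contra (adjusted p = 0.00729). The first was called in 11 of 12 alternatives, among them each of 10 fits over all nuclei of the class. It was lost in 1, a fit of D1-like or D2-like nuclei alone. The second was not called without mMCAO contra (-0.80), sMCAO contra (-0.69) or mMCAO ipsi (-0.56). MCAO contra itself differed from Sham by -0.79 ± 0.12 (adjusted p = 0.0121), the only member called in that comparison in any class, beside 0.345% of all genes, and a call lost without Sham L (-0.73), Sham R (-0.83), mMCAO contra (-0.73) or sMCAO contra (-0.84). The members called there were 1 lower and 0 higher, beside 0.186% and 0.159% of all genes. This Shisa6 call of MCAO contra against Sham was also lost in D1-like and in D2-like nuclei alone. In D2-like nuclei the change was 0.0313.

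In interneuron-like nuclei Shisa6 was not called. Its Shisa6 level was 161 and 187 CPM in Sham L and Sham R, 179 and 157 in the contra and 171 and 213 in the ipsi hemispheres of mMCAO and sMCAO, with overlapping groups (0.08 ± 0.11, adjusted p = 0.738). The difference between the classes was tested in 1 fit with the library as a block. The Shisa6 change of interneuron-like nuclei exceeded that of medium spiny neuron-like nuclei by 1.65 ± 0.15 (adjusted p = 2.44e-05) and that of glutamatergic neuron-like nuclei by 1.31 ± 0.23 (adjusted p = 0.0291). In these fits 4 and 3 members had an adjusted p under 0.05, beside 1.19% and 0.439% of all genes.

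**Figure D3:**
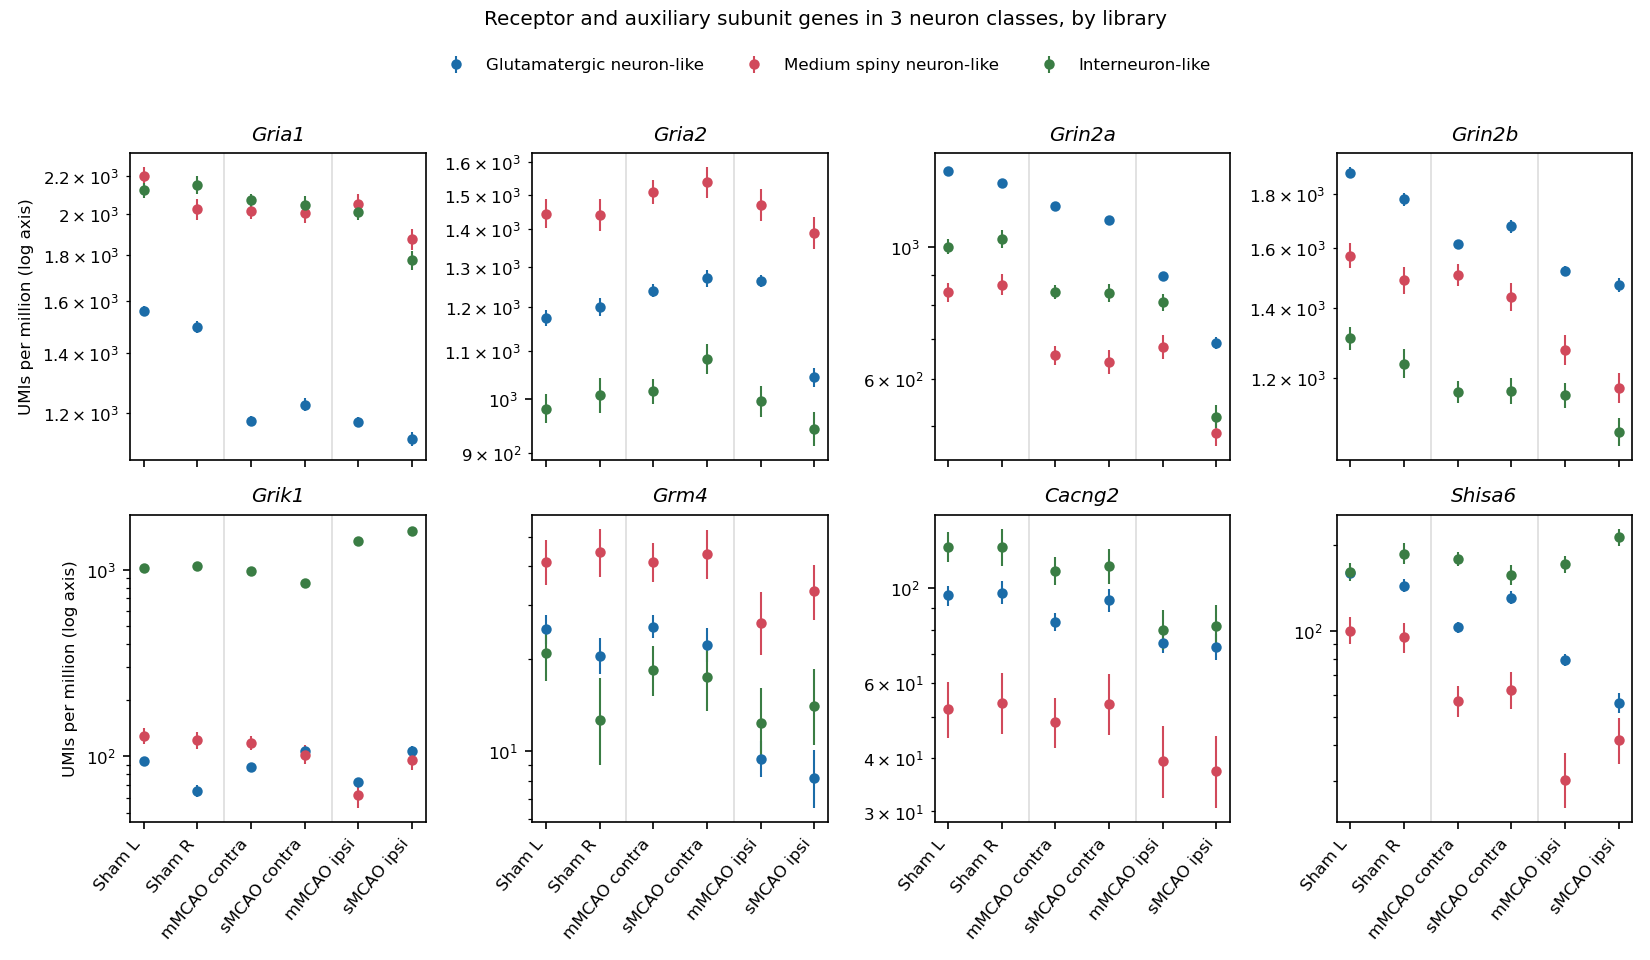
Level of 8 members (CPM, log axis) in 3 neuron classes by library, with 95% exact Poisson intervals of the counts. Shisa6 and Grm4 are lowest in the MCAO ipsi libraries of glutamatergic neuron-like nuclei, and Grik1 is highest in the MCAO ipsi libraries of interneuron-like nuclei (1429 and 1615 CPM).

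The kainate subunit Grik1 had opposite directions in the GABAergic classes. In interneuron-like nuclei it stood at 1024 and 1049 CPM in Sham L and Sham R, 979 and 848 in the contra and 1429 and 1615 in the ipsi hemispheres of mMCAO and sMCAO. Both MCAO ipsi libraries were above all others. It was the 1 member of 33 called in MCAO ipsi against MCAO contra (0.78 ± 0.10, adjusted p = 0.0126), where 0.121% of all genes were called (0.0888% higher and 0.0323% lower), and its change from Sham was 0.49 ± 0.10 (adjusted p = 0.0296), below the size for a call. Without mMCAO contra or sMCAO contra the first change was 0.90 or 0.67 and not called. In medium spiny neuron-like nuclei Grik1 was 129 and 122 CPM in Sham L and Sham R, 118 and 102 in the contra and 61.9 and 95.2 in the ipsi hemispheres of mMCAO and sMCAO (-0.75 ± 0.14, adjusted p = 0.004). This change was -0.70 without Sham L and -0.51 without mMCAO ipsi, and not called in either. The difference of the changes, interneuron-like minus medium spiny neuron-like, was 1.28 ± 0.13 (adjusted p = 6.64e-05) and ran from 1.08 to 1.54 when a library was left out, with an adjusted p of at most 0.00426. Glutamatergic neuron-like nuclei held 65.1 to 107 CPM and Grik1 was not called there (0.04 ± 0.19, adjusted p = 0.916).

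The promoters of Shisa6 and Grik1 are shown because their changes differed between the GABAergic classes. RefSeq gave a promoter window, 250 bases before to 50 after the annotated start in build GRCr8, for 22 of the members, and it serves for sequence only since the counts used another build. The GC box GGGCGG and the core of the cAMP response element, TGACG, were searched on both strands, and capitals mark the GC box. Of 33469 rat promoters of this length, 33.1% held the GC box and 21.2% held TGACG, as did 10 and 3 of the 22.
Shisa6, chr10:51691107-51691406, minus strand: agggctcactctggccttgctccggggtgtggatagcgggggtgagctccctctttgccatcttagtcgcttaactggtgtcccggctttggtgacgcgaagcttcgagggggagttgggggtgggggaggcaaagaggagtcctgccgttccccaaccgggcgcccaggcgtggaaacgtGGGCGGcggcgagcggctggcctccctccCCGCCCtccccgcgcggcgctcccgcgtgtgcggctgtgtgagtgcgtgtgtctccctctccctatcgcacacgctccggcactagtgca
Grik1, chr11:41056454-41056753, minus strand: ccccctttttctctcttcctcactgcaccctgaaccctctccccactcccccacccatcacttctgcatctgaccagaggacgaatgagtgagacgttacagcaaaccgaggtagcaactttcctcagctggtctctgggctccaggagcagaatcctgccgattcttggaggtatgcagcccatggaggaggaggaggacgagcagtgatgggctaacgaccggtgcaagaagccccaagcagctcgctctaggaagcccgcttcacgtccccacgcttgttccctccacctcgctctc
The Shisa6 window held 2 GC boxes and 1 TGACG, and that of Grik1 held no GC box, with a GC content of 68.3% and 58.7%. These matches describe letters and not sites.

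Among interneuron-like nuclei, those outside the Adarb2-like subtype (Adarb2 marks interneurons from the caudal ganglionic eminence) held Grik1 at 1121 and 1100 CPM in Sham L and Sham R, 1050 and 908 in mMCAO contra and sMCAO contra, and 1622 and 2084 in mMCAO ipsi and sMCAO ipsi. There the change from MCAO contra was 0.96 and called (adjusted p = 0.00656), and in Adarb2-like nuclei it was 0.34 (adjusted p = 0.205). Adarb2-like nuclei held Grik1 at 881 and 964 CPM in the Sham libraries and 1006 and 1021 in the MCAO ipsi libraries, and their change from Sham was smaller by 0.59 ± 0.11 (adjusted p = 0.0201), the 1 member of 32 to differ there, beside 0.158% of all genes. Between D1-like and D2-like medium spiny nuclei, the kainate subunit Grik3 differed instead, 1 of 30 members tested, beside 0.126% of all genes. It was 33.5 and 29.3 CPM in Sham L and Sham R and 5.26 and 5.62 in mMCAO ipsi and sMCAO ipsi of D1-like nuclei, from 5 and 7 UMIs in the latter, against 190 and 188 CPM and 163 and 136 CPM in D2-like nuclei. The D1-like change was lower by 2.15 ± 0.42 on the log2 scale (adjusted p = 0.00657). RNA that droplets take up from other neurons was not estimated in any neuron class, and its part in the D1-like values was not tested.

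Across all glutamatergic neuron-like nuclei, Grik3 stood at 218 and 204 CPM in Sham L and Sham R, 187 and 176 in the contra and 136 and 151 in the ipsi hemispheres of mMCAO and sMCAO, with no overlap of the 3 groups. The change was -0.67 ± 0.08 (adjusted p = 0.00434), and without Sham L it was -0.61 and not called. Grm4, a presynaptic metabotropic receptor that lowers transmitter release, was at 24.9 and 20.4 CPM in Sham L and Sham R, 25.5 and 22.2 in the contra and 9.45 and 8.16 in the ipsi hemispheres of mMCAO and sMCAO. Its change was -1.46 ± 0.16 from Sham (adjusted p = 0.00294) and -1.41 ± 0.16 from MCAO contra (adjusted p = 0.00372), at -1.30 without Sham L and -1.28 without mMCAO contra, where it was not called. Grm4, Shisa6 and Grin2a were also called lower in upper layer-like nuclei alone and in layer 6-like nuclei alone, with Grm4 at -1.53 and -1.29, Shisa6 at -1.46 and -1.21 and Grin2a at -0.91 and -0.73.

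In medium spiny neuron-like nuclei, 5 of 30 members tested were lower in MCAO ipsi than in Sham, beside 4.85% of all genes (2.18% lower and 2.67% higher), and 0 were higher. The median member change was -0.14, beside 0.00 for all genes. Besides Grin2a, Grik1 and Shisa6 they were Grm4 and the NMDA subunit Grin3a, which lowers the calcium flow of the receptor. Grm4 was at 41.5 and 44.5 CPM in Sham L and Sham R, 41.4 and 43.9 in mMCAO contra and sMCAO contra, and 26.2 and 33.1 in mMCAO ipsi and sMCAO ipsi (-0.61 ± 0.15, adjusted p = 0.0202). Grin3a was at 44.7 and 50.6 CPM in Sham L and Sham R, 40.3 and 34.5 in mMCAO contra and sMCAO contra, and 34.97 and 31.0 in mMCAO ipsi and sMCAO ipsi (-0.60 ± 0.15, adjusted p = 0.0222), at the limit of the call and overlapping the contra libraries. Grm4 kept its call in 4 of 12 alternatives and Grin3a in 3 of 12. Grm4 was not called without Sham L (-0.65), Sham R (-0.57) or mMCAO ipsi (-0.48), nor Grin3a without Sham L (-0.69), Sham R (-0.52) or sMCAO ipsi (-0.49). The count was 1 without Sham L, 2 without Sham R, 3 without sMCAO ipsi and 7 without mMCAO ipsi. With DESeq2 it was 2, with the stricter marker gate 1 (Shisa6) and with classes from clusters 2. The shares of all genes called in these refits are not given. Shisa6 alone was called against MCAO contra, beside 2.55% of all genes (1.1% lower and 1.45% higher). That count was 3 without mMCAO contra or sMCAO ipsi, 0 without sMCAO contra, 4 without mMCAO ipsi and 2 with the rat pool as a block.

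In interneuron-like nuclei, 1 of 33 members was called lower in MCAO ipsi against Sham and 0 higher, beside 1.36% of all genes (0.379% lower and 0.976% higher). Cacng2, the TARP stargazin that brings AMPA receptors to the synapse, was at 125 CPM in both Sham libraries, 110 and 113 in mMCAO contra and sMCAO contra, and 80.0 and 81.6 in mMCAO ipsi and sMCAO ipsi (-0.69 ± 0.09, adjusted p = 0.00751). The 3 groups did not overlap. The call was lost without Sham L (-0.68) or Sham R (-0.70). Between MCAO contra and Sham 0 members were called by edgeR and by DESeq2, beside 0% of all genes. There 10 of 33 members had an unadjusted p under 0.05, beside 1578 of all 12393 genes tested. Cacng2 was also lower, below the size for a call, in glutamatergic (-0.51 ± 0.08, adjusted p = 0.00864) and medium spiny neuron-like nuclei (-0.54 ± 0.13, adjusted p = 0.0197). The metabotropic receptors Grm5 and Grm7 had adjusted p-values of at least 0.167 in all 3 neuron classes in MCAO ipsi against Sham. Grin2d was too low to test in glutamatergic and medium spiny neuron-like nuclei, and Grin2c and Grm2 were too low in the latter.

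Other genes of glutamatergic signalling, 41 of 43 listed scaffold, kinase, transporter and pentraxin genes found, were counted beside the receptors. Between MCAO ipsi and Sham, 4 were called higher and 7 lower of 39 tested in glutamatergic neuron-like nuclei, beside 4.37% and 2.28% of all genes, led by Homer3 (2.36 ± 0.41), C1ql3 (1.47 ± 0.25) and Gsg1l (-1.25 ± 0.25), genes of a postsynaptic scaffold, a secreted C1q-like protein and an AMPA receptor auxiliary subunit. In medium spiny neuron-like nuclei 1 was higher and 4 were lower of 35, beside 2.67% and 2.18% of all genes, led by the pentraxin receptor Nptxr (-1.59 ± 0.35) and the pentraxins Nptx1 (-1.48 ± 0.33) and Nptx2 (1.39 ± 0.39). In interneuron-like nuclei 1 of 37 was called (lower, as were 0.379% of all genes), the glutamate transporter gene Slc1a2 (-0.64 ± 0.12). Slc1a2 was also among the genes called lower in glutamatergic (-1.05 ± 0.10) and medium spiny neuron-like nuclei (-1.09 ± 0.20).

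Glial values were read against free neuronal RNA, which droplets take up from broken cells. It was measured as the median level of 11 neuronal genes that served in no gate, as a percentage of their level in neurons of the same library. In astrocyte-like nuclei it was 34.2% and 41.7% in Sham L and Sham R, 15.1% and 16.1% in the contra and 10.5% and 7.50% in the ipsi hemispheres of mMCAO and sMCAO. In OPC-like nuclei it was 37.5%, 35.4%, 28.2%, 32.4%, 15.4% and 10.1% in the same order. The background was thus lower in both MCAO ipsi libraries than in every other library. Single genes of the 11 ran from 0.829% to 172% in astrocyte-like and from 4.21% to 111% in OPC-like nuclei, so this background is a rough estimate. Where a member lay below the level expected from it, the estimate exceeded all that was measured and is too high for that gene, and a call lost after its subtraction does not show that the change came from free RNA. The nuclei numbered 114 and 144 in the Sham libraries of the astrocyte-like class and 466 and 570 in the MCAO ipsi libraries, with a median of 634 to 2245 UMIs. Summed neuron markers of this class were at 1101 and 1002 CPM in Sham L and Sham R against 493 and 223 in mMCAO ipsi and sMCAO ipsi. Fewer cells of a kind, less RNA per nucleus and less free RNA cannot be told apart in these sums.

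**Figure D4:**
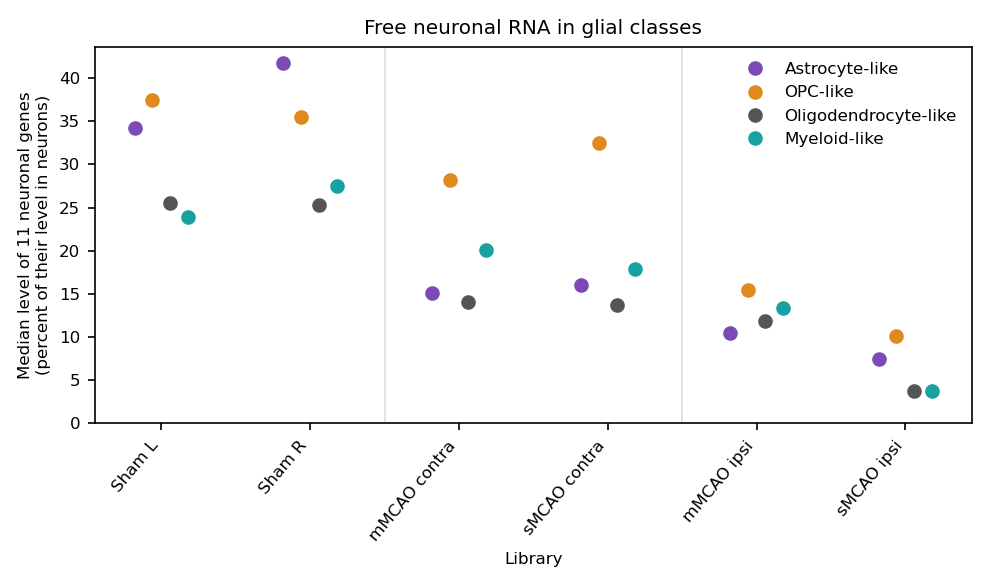
Free neuronal RNA (median level of 11 neuronal genes, percent of their level in neurons) in 4 glial classes by library. The points fall from 23.9% to 41.7% in the Sham libraries to 3.78% to 15.4% in the MCAO ipsi libraries.

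In astrocyte-like nuclei, 12 of 25 members tested were called in MCAO ipsi against Sham, beside 11.1% of all genes, with 10 lower and 2 higher (5.47% and 5.66% of all genes). 1 of the higher members, Cnih3, passed the filter on low counts through the MCAO ipsi libraries only and had to come out higher, so it supports nothing, and Grm5 is the other. Grin1 and Grin2a, among the 10 lower, in turn passed with no MCAO ipsi library over the limit. They had to come out lower, so their calls support nothing, and neither does that of Grin2a against MCAO contra. Against MCAO contra 10 were called, beside 9.15% of all genes, with 8 lower and 2 higher (3.89% and 5.26% of all genes), Cnih3 again among the latter. Between MCAO contra and Sham 0 were called by edgeR and by DESeq2, beside 0.0316% of all genes. There 10 of 25 members had an unadjusted p under 0.05, beside 576 of all 6326 genes tested. Without Sham L or Sham R the first count was 4, without mMCAO contra and without sMCAO contra the second was 2 and 6, and without mMCAO ipsi it was 17. No share of all genes stands beside these counts with a library left out. After the free neuronal RNA had been subtracted, 4 members (beside 4.45% of all genes) and 7 members (beside 6.3%) were called, Cnih3 among the 7. Only 5638 genes were tested then, so members may also have dropped out of testing. The number of members still tested and the directions are not given.

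Of the 10 lower members, 5 lay at no more than 1.16 times the level expected from free neuronal RNA in every library. Grin2a was at 240 and 314 CPM in Sham L and Sham R, 97.3 and 138 in mMCAO contra and sMCAO contra, and 33.6 and 9.94 in mMCAO ipsi and sMCAO ipsi. This was 0.231 to 0.902 times the expected level in every library. The change of -3.91 ± 0.47 is a description with no test, since no MCAO ipsi library passed the filter on low counts. Gria1 was at 340 and 507 CPM in Sham L and Sham R, 161 and 200 in the contra and 94.7 and 94.1 in the ipsi hemispheres of mMCAO and sMCAO, 0.589 to 0.883 times the expected level (-2.19 ± 0.24). Grm7 was at 671 and 941 CPM in Sham L and Sham R, 300 and 275 in the contra and 160 and 53.0 in the ipsi hemispheres of mMCAO and sMCAO, 0.278 to 0.856 times (-3.04 ± 0.41). Like the background, these 3 were lowest in the MCAO ipsi libraries. Grin1 (-2.61 ± 0.60, 0.435 to 1.09 times) was not called without Sham L (-2.55) or Sham R (-2.61). Neto1 (-3.01 ± 0.58, 0.277 to 1.16 times) was not called without Sham L (-2.77) or Sham R (-3.16).

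Grm5, a metabotropic receptor that couples to calcium release, was at 1250 and 1255 CPM in Sham L and Sham R, 1103 and 1065 in the contra and 2640 and 2203 in the ipsi hemispheres of mMCAO and sMCAO. Both MCAO ipsi libraries were above all others, and the change was 0.90 ± 0.18 from Sham (adjusted p = 0.00849) and 1.12 ± 0.18 from MCAO contra (adjusted p = 0.00306). The level was 1.22 and 1.56 times the expected background in Sham R and Sham L and 10.5 and 12.0 times in mMCAO ipsi and sMCAO ipsi. With the background subtracted the changes were 2.22 (adjusted p = 0.00479) and 1.495 (adjusted p = 0.0063). The first call was lost without Sham L (0.94) or Sham R (0.88), the second without mMCAO contra (1.16), and with classes from clusters the changes were 0.42 and 0.43 and not called. A UMI of Grm5 was found in 52.1% and 44.7% of nuclei in Sham L and Sham R and in 65.9% and 60.9% in mMCAO ipsi and sMCAO ipsi, with median depths of 767, 634, 1252 and 2245 UMIs. Thinned to 1000 UMIs a nucleus, these were 54.5% of 22, 78.6% of 14, 67.4% of 328 and 53.5% of 535 nuclei, and no order can be read from them. In myeloid-like nuclei the shares were 63.6% of 11 and 58.3% of 12 nuclei in Sham L and Sham R, and 24.7% and 8.63% in mMCAO ipsi and sMCAO ipsi. Their median depths were 810, 602, 767 and 1071 UMIs, and whether they express the gene themselves was not tested.

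Cnih3, whose cornichon protein slows AMPA receptor closing, had 0 UMIs in both Sham libraries of the astrocyte-like class. It was at 13.9 and 13.3 CPM in the contra and 45.8 and 63.6 in the ipsi hemispheres of mMCAO and sMCAO, which is 9.76 and 19.3 times the expected background in the last 2. With 3 UMIs over the Sham group as a floor, the pooled MCAO ipsi level was at least 3.95-fold higher. These levels are a description with no test, since the gene passed the filter on low counts through the MCAO ipsi libraries only. A UMI of Cnih3 was found in 0 of 144 nuclei of Sham L and 0 of 114 of Sham R, which allows shares of nuclei with a UMI of up to 2.08% and 2.63%, at the median depths given for Grm5. It was found in 5.36% of 466 nuclei of mMCAO ipsi and in 10.4% of 570 nuclei of sMCAO ipsi, the deeper library. Thinned to 1000 UMIs a nucleus, the shares were 0 of 22 and 0 of 14 nuclei in Sham L and Sham R, 3.96% of 328 in mMCAO ipsi and 5.42% of 535 in sMCAO ipsi. So few Sham nuclei remained that a difference in this share was not detectable at this depth. Myeloid-like nuclei held a UMI in 0.427% and 0.373% of nuclei in mMCAO ipsi and sMCAO ipsi.

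The promoters of Grm5 and Cnih3, whose levels in astrocyte-like nuclei were highest in the MCAO ipsi libraries, are shown in the same way, with the GC box in capitals.
Grm5, chr1:150733503-150733802, plus strand: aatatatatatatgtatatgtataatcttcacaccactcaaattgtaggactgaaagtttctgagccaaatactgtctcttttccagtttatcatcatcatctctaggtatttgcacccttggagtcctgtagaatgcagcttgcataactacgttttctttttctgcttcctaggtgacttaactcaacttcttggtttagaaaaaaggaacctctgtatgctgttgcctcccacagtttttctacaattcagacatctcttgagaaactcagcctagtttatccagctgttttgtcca
Cnih3, chr13:95631219-95631518, plus strand: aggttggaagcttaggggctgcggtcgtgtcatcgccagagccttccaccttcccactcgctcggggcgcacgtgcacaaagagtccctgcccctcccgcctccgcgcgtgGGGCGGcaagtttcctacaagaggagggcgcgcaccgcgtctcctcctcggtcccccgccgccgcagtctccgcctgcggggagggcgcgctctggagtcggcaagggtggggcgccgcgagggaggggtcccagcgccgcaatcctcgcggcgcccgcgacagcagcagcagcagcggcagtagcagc
The Grm5 window held no GC box and had a GC content of 37.3%, and that of Cnih3 held 1 GC box and had a GC content of 72.3%.

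Grin2c, the NMDA subunit of astrocytes, lay at 262 to 1482 times the expected background. It was at 439 and 338 CPM in Sham L and Sham R, 511 and 471 in the contra and 226 and 225 in the ipsi hemispheres of mMCAO and sMCAO. Both MCAO ipsi libraries were below all others (-0.86 ± 0.21 from Sham, adjusted p = 0.0222, and -1.17 ± 0.18 from MCAO contra, adjusted p = 0.00309). The first call was lost without Sham L (-0.59) or Sham R (-1.04) and with classes from clusters (-0.52). The second was lost without mMCAO contra (-1.09). With the background subtracted both were called, at -1.25 and -1.29. The subtraction takes almost no counts from a gene so far above the background. This shift of Grin2c therefore reflects the library scaling, which was recomputed on the subtracted sums and enters every change given after subtraction. Grik2 was at 1474 and 1291 CPM in Sham L and Sham R, 842 and 1034 in mMCAO contra and sMCAO contra, and 519 and 520 in mMCAO ipsi and sMCAO ipsi (-1.47 ± 0.19, adjusted p = 0.000658), called in all 11 alternatives. Gria2 fell from 1259 and 1110 CPM in the Sham libraries to 660 and 488 in mMCAO ipsi and sMCAO ipsi, with 906 and 790 in the contra libraries, and stood 2.20 to 5.99 times above the background (-1.11 ± 0.21, adjusted p = 0.00589, and -1.10 after subtraction, adjusted p = 0.0346). Without Sham L (-0.97) or Sham R (-1.21) Gria2 was not called.

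The group II metabotropic receptor gene Grm3 was at 1267 and 1702 CPM in Sham L and Sham R, 1742 and 1705 in the contra and 1950 and 1754 in the ipsi hemispheres of mMCAO and sMCAO, 10.9 to 82.9 times the background, with no call (0.28 ± 0.19, adjusted p = 0.414). The delta receptor gene Grid1, whose protein links synapses, was at 712 and 724 CPM in the Sham libraries, 892 and 857 in the contra libraries and 599 and 520 in mMCAO ipsi and sMCAO ipsi, called against MCAO contra (-0.69 ± 0.17, adjusted p = 0.0262) but not without mMCAO contra (-0.64), sMCAO contra (-0.74) or sMCAO ipsi (-0.57). Shisa9 was at 646 and 567 CPM in the Sham libraries, 892 in both contra libraries and 377 and 403 in the MCAO ipsi libraries. It was called against MCAO contra (-1.23 ± 0.17, adjusted p = 0.00177) and in all 12 alternatives of that comparison. It was also called against Sham (-0.69 ± 0.19, adjusted p = 0.033). That call was lost in 8 of 11 alternatives, among them those without Sham L (-0.55) or Sham R (-0.80). Grin2b was at 969 and 941 CPM in the Sham libraries, 775 and 777 in the contra libraries and 442 and 244 in the MCAO ipsi libraries, 1.44 to 3.54 times the background (-1.55 ± 0.26, adjusted p = 0.00324, and not called after subtraction or without Sham L (-1.48) or Sham R (-1.59)). Gria4 was at 290 and 471 CPM in Sham L and Sham R, 133 and 209 in the contra and 173 and 33.1 in the ipsi hemispheres of mMCAO and sMCAO, 0.380 to 1.34 times the background, and not called against Sham (-2.03, adjusted p = 0.0512). Its MCAO ipsi libraries differed widely, and the change was called at -3.50 without mMCAO ipsi and at -1.10 without sMCAO ipsi. It was also called with DESeq2 (-1.96), no filter (-1.90), classes from clusters (-1.57) and the stricter gate (-2.42). Against MCAO contra Gria4 was called at -2.35 without mMCAO ipsi, with no filter (-0.84) and with clusters (-1.49). Of the other glutamatergic genes 0 were higher and 8 lower of 27 tested against Sham, beside 5.66% and 5.47% of all genes, led by Camk2a (-3.69 ± 0.58), Lrrtm3 (-3.47 ± 0.56) and Dlgap2 (-3.26 ± 0.50), each at or under 1.32 times the background in every library. Through which libraries these other genes passed the filter on low counts was not checked, so it may have fixed the direction of their calls.

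**Figure D5:**
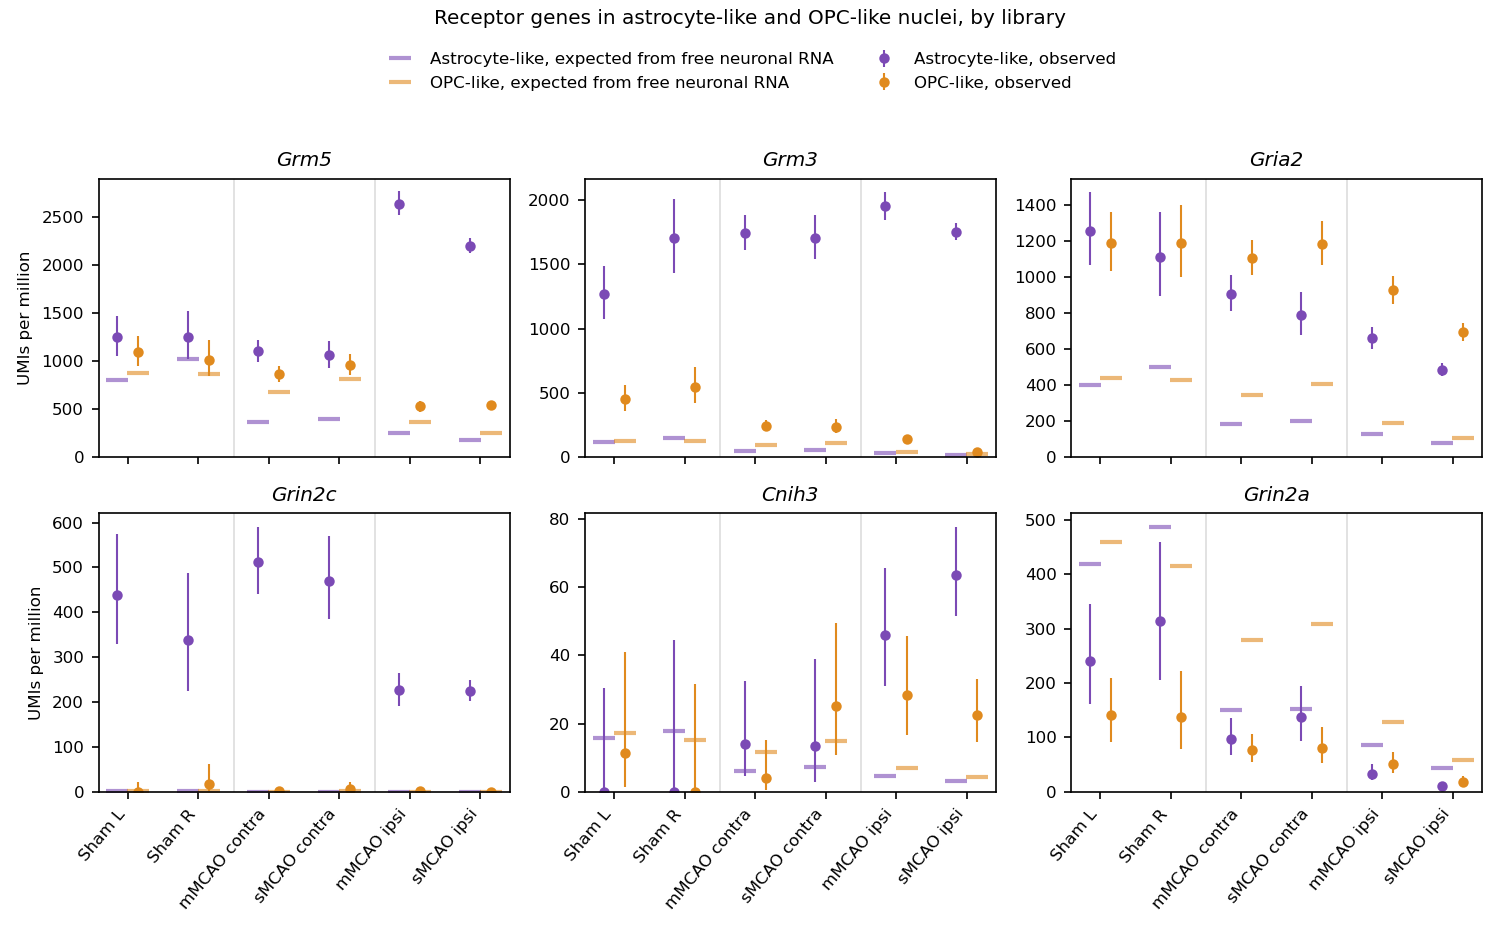
Observed level (points, CPM with 95% exact Poisson intervals) and level expected from free neuronal RNA (dashes) of 6 members in astrocyte-like and OPC-like nuclei by library. Grm5 of astrocyte-like nuclei rises above its dash in the MCAO ipsi libraries (2640 and 2203 CPM), and Grin2a lies at or under its dash in both classes.

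OPC-like nuclei numbered 170 and 142 in Sham L and Sham R and 511 and 542 in mMCAO ipsi and sMCAO ipsi. Their median depth by library ran from 683.5 UMIs in Sham R to 1773.5 in sMCAO ipsi. In OPC-like nuclei, 12 of 26 members tested were lower in MCAO ipsi than in Sham and 0 higher, beside 9.75% of all genes (5.22% lower and 4.53% higher). Against MCAO contra 14 were lower and 0 higher, beside 12.6% of all genes (6.36% lower and 6.26% higher). Between MCAO contra and Sham 0 were called by edgeR and by DESeq2, beside 0% of all genes. There 3 of 26 members had an unadjusted p under 0.05, beside 553 of all 7376 genes tested. The first count was 7 without Sham L or sMCAO ipsi, 6 without Sham R and 16 without mMCAO ipsi, 7 with DESeq2 and 5 with the stricter gate or with classes from clusters. The second was 2 without mMCAO contra, 6 without sMCAO contra, 7 without sMCAO ipsi and 17 without mMCAO ipsi, and 3 with DESeq2 or with classes from clusters. The shares of all genes called in these refits are not given. After subtraction of the background 4 members (beside 5.69% of all genes) and 6 members (beside 8.34%) were called. Both counts hold Gria1, which the subtraction put at 0 in the Sham and contra libraries, so that it had to come out higher and supports nothing (as deposited -0.31 and -0.08, adjusted p = 0.342 and 0.815). The others, 3 and 5 members, were lower. With the subtraction 6080 genes were tested, against 7376 before it, so members may also have dropped out of testing.

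The members that OPC-like nuclei held above the background were led by Cacng4 (24.6 to 47.3 times), Grin3a (12.8 to 24.6 times), Grik4 (5.85 to 11.3 times), Grid1 (3.72 to 14.8 times), Grik2 (3.63 to 8.64 times), Gria4 (2.92 to 8.93 times) and Grik1 (3.80 to 7.36 times). Grik1 was at 436 and 513 CPM in Sham L and Sham R, 598 and 457 in the contra and 336 and 196 in the ipsi hemispheres of mMCAO and sMCAO (-0.95 ± 0.26 from Sham, adjusted p = 0.0239, and -1.15 ± 0.23 from MCAO contra, adjusted p = 0.00278). Both MCAO ipsi libraries were below all others, and both calls were kept with the background subtracted, at -1.18 and -1.41. The first call was lost without Sham L (-1.06), Sham R (-0.85) or sMCAO ipsi (-0.53), and the second without mMCAO contra (-0.90). Grin3a was at 368 and 333 CPM in the Sham libraries, 352 and 423 in the contra libraries, 279 in mMCAO ipsi and 190 in sMCAO ipsi (-0.86 ± 0.20 from MCAO contra, adjusted p = 0.00738), not called without mMCAO contra (-0.97), sMCAO contra (-0.74) or sMCAO ipsi (-0.54). Gria4 was at 1309 and 1308 CPM in the Sham libraries, 1647 and 1481 in the contra libraries, 1290 in mMCAO ipsi and 1052 in sMCAO ipsi, and was not called, though at -0.73 from MCAO contra it was called without mMCAO ipsi. Grik2 was at 2521 and 2317 CPM in Sham L and Sham R, 2118 and 2195 in the contra and 2106 and 1658 in the ipsi hemispheres of mMCAO and sMCAO. Grid1 was at 1235 and 838 CPM in Sham L and Sham R, 1270 and 1171 in the contra and 1032 and 990 in the ipsi hemispheres of mMCAO and sMCAO, and neither was called, though without mMCAO ipsi Grik2 was called at -0.67 from Sham. Gria2 was at 1190 and 1189 CPM in the Sham libraries, 1107 and 1186 in the contra libraries, 928 in mMCAO ipsi and 695 in sMCAO ipsi (-0.66 ± 0.18, adjusted p = 0.0287). This call was lost in 9 of 11 alternatives, among them those without Sham L (-0.64), Sham R (-0.67) or sMCAO ipsi (-0.41).

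The lowest p-values belonged to members nearer to the background. Grm3 was at 453 and 547 CPM in Sham L and Sham R, 244 and 238 in the contra and 141 and 39.5 in the ipsi hemispheres of mMCAO and sMCAO, 1.38 to 4.36 times the expected level, with no overlap between the groups (-2.69 ± 0.37, adjusted p = 0.000222, and -3.44 after subtraction, adjusted p = 0.00381). Summed oligodendrocyte markers, a class in which Grm3 was at 2876 to 4900 CPM, were also lower there, at 595 and 522 CPM in Sham L and Sham R against 236 and 137 in mMCAO ipsi and sMCAO ipsi, and their part in the Grm3 change was not tested. Grm5 was at 1099 and 1018 CPM in the Sham libraries, 865 and 964 in the contra libraries and 530 and 547 in the MCAO ipsi libraries, 1.17 to 2.19 times the expected level (-1.08 ± 0.16, adjusted p = 0.000478), and after subtraction its change was -0.14 and not called.

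Grin2b, Grm8 and Grin2a were at 0.182 to 0.551 times the expected level in every library of OPC-like nuclei. Grin2b was at 329 and 197 CPM in Sham L and Sham R, 156 and 185 in the contra and 87.0 and 23.3 in the ipsi hemispheres of mMCAO and sMCAO (-2.58 ± 0.43). Grm8 was at 176 and 162 CPM in Sham L and Sham R, 89.6 and 78.3 in the contra and 53.5 and 24.2 in the ipsi hemispheres of mMCAO and sMCAO (-2.34 ± 0.36). Grin2a was at 142 and 137 CPM in Sham L and Sham R, 77.1 and 81.4 in the contra and 51.9 and 18.9 in the ipsi hemispheres of mMCAO and sMCAO (-2.23 ± 0.41). All 3 were lowest in the MCAO ipsi libraries, as the background was. Shisa9 was at 255 and 154 CPM in Sham L and Sham R, 192 and 150 in the contra and 83.6 and 93.4 in the ipsi hemispheres of mMCAO and sMCAO, 0.761 to 1.34 times the expected level, and its change from Sham (-1.35) was lost without Sham L (-0.88). Grin1 (-1.32) kept its call in 3 of 10 alternatives and changed sign under the stricter gate (0.0356). It was not called without Sham L (-1.06), Sham R (-1.49) or sMCAO ipsi (-0.87). Cacng3 (-2.42) passed the filter with no MCAO ipsi library over the limit, so its calls against Sham and against MCAO contra support nothing. It was not called without Sham R (-1.44) or sMCAO ipsi (-1.96), and both genes had libraries below the expected level. Cacng8 (-1.55), at 1.57 to 3.30 times that level, kept its call in 6 of 11 alternatives and lost it, among others, without Sham R (-1.08). Grm7 (-0.65), at 1.64 to 3.76 times it, lost its call in 9 of 11 alternatives, among them those without Sham L (-0.69), Sham R (-0.61) or sMCAO ipsi (-0.39). Several of these genes had few counts, with 23 UMIs of Cacng8, 27 of Grin1, 41 of Grin2a and 50 of Grm8 over the Sham group. Against MCAO contra, Cacng4 (-0.60) kept its call in 4 of 12 alternatives and Shisa6 (-0.77) in 8 of 12. Cacng4 was not called without mMCAO contra (-0.46), sMCAO contra (-0.71) or sMCAO ipsi (-0.44), and Shisa6 not without mMCAO contra (-0.87) or sMCAO contra (-0.69). Of the other glutamatergic genes 0 were higher and 10 lower of 30 tested against MCAO contra, beside 6.26% and 6.36% of all genes. Against Sham 0 were higher and 6 lower, beside 4.53% and 5.22% of all genes, led by Camk2a (-3.15 ± 0.60), Dlgap2 (-2.60 ± 0.30) and Gsg1l (-1.58 ± 0.43). These other genes are not set against the expected background here, which was also lowest in the MCAO ipsi libraries. Through which libraries they passed the filter on low counts was not checked.

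Astrocyte-like and OPC-like nuclei of the same libraries differed in the change of 8 of 27 members between MCAO ipsi and Sham, beside 2.09% of all genes. The 8 include Grin2a, whose change in astrocyte-like nuclei was given above as a description with no test. They also include Gria1, Gria4, Grm7 and Neto1, which lay near or below the expected background in astrocyte-like nuclei. Grm5 and Grm3 were the 2 that also differed after subtraction of the background, of 18 members tested and beside 0.245% of all genes. The Grm5 change of astrocyte-like nuclei exceeded that of OPC-like nuclei by 1.96 ± 0.23 (adjusted p = 3.01e-05), and by 2.49 ± 0.45 (adjusted p = 0.0367) after subtraction. For Grm3 the difference was 3.05 ± 0.36 (adjusted p = 3.11e-05), and 3.73 ± 0.64 (adjusted p = 0.0245) after subtraction. Grm5 lay close to the expected background in the Sham libraries of both classes, so little of it remained there after subtraction. Its astrocyte-like change was not called with classes from clusters, and the differences were not refitted with those classes. The part of oligodendrocyte markers in the OPC-like Grm3 change was not tested.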

How the data were processed

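Nuclei of 6 pooled libraries were profiled by droplet single-nucleus RNA sequencing. The deposited matrices hold raw counts of unique molecular identifiers (UMIs) per gene and barcode. The submitters' processing notes name Cell Ranger 7.0.0 and the rat genome mRatBN7.2. The study's own removal of free RNA and doublets came after these counts and was not applied. Nuclei with at least 500 UMIs, 250 to 5000 genes and at most 5% mitochondrial UMIs were kept. No doublet caller was run, but a class needed its marker sum to lead the next class 1.5-fold. Of 73826 barcodes, 3022 sequences occurred in more than 1 library. Clusters, used as an alternative, came from scanpy 1.11.5 with 2984 variable genes, none of them a member, 30 components, 15 neighbours and Leiden resolution 1.

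Counts were summed per library and class, filtered with filterByExpr, TMM-normalized and tested with edgeR 4.0.16 in R 4.3.3 over all 6 libraries, with DESeq2 1.42.0 as an alternative. Calls needed an adjusted p under 0.05 and a log2 change of at least 0.6. As an alternative in glial classes, the counts expected from free neuronal RNA (its measured share of the neuronal level) were subtracted from the sums. The subtracted sums were filtered and scaled anew, so changes after subtraction hold a shift of scale beside the removal of background. A self-test on simulated data was also run. Differences between classes were tested with library as a block. Contra and ipsi libraries of a severity come from the same rats, per the labels, and their deviations correlated at 0.0274 to 0.115 across genes. The members and lists were chosen with earlier results of these data known. Values by library were given for the main AMPA and NMDA genes in neurons, for 6 glial members, and for members called (at most 8 a class, by p). Other settings tried were RLE scaling, no filter, 4 libraries, a stricter gate, subtypes, the block and leaving out each library.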

Additional observations from a re-analysis of the deposited data

Results flagged for a closer look

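The change of a member from Sham to MCAO ipsi differed between classes in 19 tests of the difference itself, by the quasi-likelihood test of edgeR and the Benjamini-Hochberg method over all genes, chosen after the changes within classes had been seen. Between interneuron-like and medium spiny neuron-like nuclei the difference was 0.91 for Grin3a (adjusted p = 0.00445), 1.28 for Grik1 (adjusted p = 6.64e-05), 0.98 for Grm8 (adjusted p = 0.00577) and 1.65 for Shisa6 (adjusted p = 2.44e-05). These were 4 of 32 members tested, beside 1.19% of all genes. Between interneuron-like and glutamatergic neuron-like nuclei the difference was 0.88 for Grm8 (adjusted p = 0.0241), 0.48 for Neto1 (adjusted p = 0.0297) and 1.31 for Shisa6 (adjusted p = 0.0291). These were 3 of 33 members tested, beside 0.439% of all genes. Between glutamatergic and medium spiny neuron-like nuclei the difference was 0.81 for Grik1 (adjusted p = 0.0441) and -0.70 for Neto1 (adjusted p = 0.00176), 2 of 32 members, beside 0.963% of all genes. Within classes, Grik1 outside the Adarb2-like subtype differed from Adarb2-like nuclei by 0.59 (adjusted p = 0.0201), and Grik3 of D1-like from D2-like nuclei by -2.15 (adjusted p = 0.00657). Grik1 was 1 of 32 members tested, beside 0.158% of all genes, and Grik3 was 1 of 30, beside 0.126%.

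Between astrocyte-like and OPC-like nuclei the difference was -1.86 for Gria1 (adjusted p = 0.000747), -1.97 for Gria4 (adjusted p = 0.0203), -1.66 for Grin2a (adjusted p = 0.0464), -0.99 for Grik2 (adjusted p = 0.0202), 3.05 for Grm3 (adjusted p = 3.11e-05), 1.96 for Grm5 (adjusted p = 3.01e-05), -2.48 for Grm7 (adjusted p = 3.11e-05) and -2.86 for Neto1 (adjusted p = 0.000756). These were 8 of 27 members tested, beside 2.09% of all genes. The free neuronal RNA was lowest in the MCAO ipsi libraries of both classes, and after its subtraction Grm3 and Grm5 had an adjusted p under 0.05. They were 2 of 18 members tested then, beside 0.245% of all genes, and the limits given for them above hold here too. Gria1, Gria4, Grm7 and Neto1 lay near or below the expected background in astrocyte-like nuclei. The Grin2a difference rests on an astrocyte-like change that is a description with no test.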

How the results depend on the processing

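Over the 63 member changes called, 716 alternative values were computed, of which 485 kept the call, 228 lost it and 3 changed sign. The 63 include the calls of Cnih3, Grin1 and Grin2a in astrocyte-like and of Cacng3 in OPC-like nuclei. The filter on low counts fixed the direction of these calls, so the alternatives that kept them support nothing. The sign changed for Shisa6 between MCAO contra and Sham in D2-like nuclei alone (0.0313), for Grin1 in OPC-like nuclei under the stricter gate (0.0356) and for Grm5 in OPC-like nuclei against MCAO contra with free neuronal RNA subtracted (0.0798). Apart from these, the astrocyte-like minus OPC-like difference of Gria4 changed sign with that subtraction (5.86). Gria4 lay near or below the expected background in astrocyte-like nuclei, and the subtraction leaves no counts where a library is below it. This value of Gria4 therefore supports nothing. The cause of the other sign changes was not tested.

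Against Sham, the count of members called in medium spiny neuron-like nuclei went from 5 to 2 with DESeq2, 2 with classes from clusters, 1 with the stricter gate, 3 in D1-like and 1 in D2-like nuclei. In interneuron-like nuclei it went from 1 to 3 with no filter on low counts, 2 with clusters, 2 with the stricter gate, 0 in Adarb2-like nuclei and 2 outside them. In astrocyte-like nuclei it went from 12 to 4 with free neuronal RNA subtracted. In OPC-like nuclei it went from 12 to 7 with DESeq2, 6 with only the 4 libraries compared, 5 with clusters, 5 with the stricter gate and 4 with the subtraction (Gria1, put at 0 in Sham, and 3 lower members). Against MCAO contra, glutamatergic neuron-like nuclei went from 2 to 1 with only the 4 libraries and 1 with clusters. Medium spiny neuron-like nuclei went from 1 to 3 with no filter, 4 with clusters, 3 with the stricter gate, 3 in D1-like and 2 in D2-like nuclei. Interneuron-like nuclei went from 1 to 0 with only the 4 libraries and 0 in Adarb2-like nuclei. Astrocyte-like nuclei went from 10 to 6 with DESeq2 and 18 with clusters. OPC-like nuclei went from 14 to 3 with DESeq2, 3 with clusters, 5 with the stricter gate and 6 with the subtraction. Between MCAO contra and Sham, medium spiny neuron-like nuclei went from 1 to 0 in D1-like and 0 in D2-like nuclei. In that comparison astrocyte-like nuclei went from 0 to 3 with no filter and 5 with only the 4 libraries, and OPC-like nuclei from 0 to 1 and 1. Fewer genes could be tested after the subtraction than before it. The share of all genes called in the same fits is not given beside these counts. They therefore do not show whether the members moved apart from other genes.

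With the rat pool as a replicate block, the members called against MCAO contra were 3 in glutamatergic, 2 in medium spiny and 1 in interneuron-like nuclei, 14 in astrocyte-like and 12 in OPC-like nuclei. The same limit holds for these counts and for those that follow. When 1 library was left out, the count against Sham ran from 0 to 8 in glutamatergic, 1 to 7 in medium spiny, 0 to 5 in interneuron-like, 4 to 15 in astrocyte-like and 6 to 16 in OPC-like nuclei. Against MCAO contra it ran from 0 to 6, 0 to 4, 0 to 3, 2 to 17 and 2 to 17, and between MCAO contra and Sham it was 0 in every class. A group left with 1 library was assumed to vary like the others. In simulated counts with a log2 change of 1, 76% of changed genes were recovered at the depth of glutamatergic neuron-like nuclei, 20% in astrocyte-like and 17% in OPC-like nuclei, so the smaller classes limit what could be called.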

Other observations

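Oligodendrocyte-like nuclei, which entered no test, held members of the module above the level expected from free neuronal RNA. Grm3 was at 3634 and 2975 CPM in Sham L and Sham R, 4900 and 4495 in the contra and 4092 and 2876 in the ipsi hemispheres of mMCAO and sMCAO. The kainate subunit gene Grik4 was at 496 and 379 CPM in Sham L and Sham R, 636 and 551 in the contra and 489 and 501 in the ipsi hemispheres of mMCAO and sMCAO. The MCAO ipsi libraries lay within the range of the others for Grik4, and sMCAO ipsi was the lowest for Grm3.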
